A study of Homo sapiens with 6 samples.

Results

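The transcriptome of empty-vector BT474 cells was described from 2 of the 6 arrays of the series, the Control arrays A and B, chosen by their labels alone. BT474 is an established human breast cancer line of luminal origin that is ER-positive and carries an amplified HER2 gene, ERBB2. The Control cells, labelled MOCK, had been transfected with empty pcDNA3.1, of which the study's methods name more than 1 form without saying which these arrays hold, and were kept in RPMI-1640 with 10% heat-inactivated FBS. The remaining 4 arrays held BT474 cells transfected with the lncRNA NR2F1-AS1 as variant 1 or variant 4, and their values do not enter here. All cells, Control included, descended from the same line, and no source used here says whether arrays A and B came from separate cultures, so the spread between them may be technical. One sample per array of total RNA was labelled with Cy3, and with 2 arrays of a single group no test was made and no p-value is given.

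Luminal cells line the ducts and lobules of the breast and face the lumen, whereas basal or myoepithelial cells lie beneath them on the basement membrane. The luminal program rests on the transcription factors FOXA1 and GATA3 and on the estrogen receptor ESR1, and it is read out through simple keratins, tight junction proteins and small secreted proteins. HER2, the product of ERBB2, is a receptor tyrosine kinase that binds no known ligand and signals in pairs with its relatives, chiefly ERBB3, to PI3K, AKT and the MAP kinases. Amplification of its locus on chromosome 17q carries neighbouring genes along.

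Signals are given as log2 of the processed intensity less the array's 75th percentile over non-control probes, so that 0 is the 75th percentile and each unit is a doubling. Where 2 values stand together, the first is array A and the second array B, and means are given ± SD with n = 2. A gene name is represented by its brightest probe. Because a probe's brightness depends on its sequence as well as on its target RNA, the order of gene names is an order of signals and not of RNA amounts. The scanner software marks a spot as well above background, and a gene name was called detected when 1 of its probes was so marked on both arrays. The dimmest spot so marked lay at −4.76 on array A and −5.02 on array B, and a gene name that was not well above background is bounded by this level, or by its own signal where that is higher.

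Of 43311 gene names, 23783 were well above background on both Control arrays, 54.9%, and 2713 more on 1 array. Among the 17447 gene names that RefSeq lists as protein-coding, 13277 were detected, 76.1%, and 8175 lay over the 75th percentile, 46.9%. These shares, 76.1% and 46.9%, are the background for the lists of protein-coding genes that follow. The arrays agreed closely, with a Pearson r of 0.997 across the 30759 probes well above background on both, which describes probes and not replicates. The median SD between arrays was 0.056 over detected gene names and 0.023 over the 1000 brightest. It was 0.104 over detected names below the 75th percentile, so the dimmer values carried more error. No spot was saturated. Of the 100 brightest gene names of array A, 98 were among the 100 brightest of array B. Well-above-background calls reached far down the scale, and 67 of 362 olfactory receptor genes, which breast epithelium is not known to use, were also detected, 18.5%. A detected gene was therefore read together with its signal, and 4 of the 362 olfactory receptors exceeded the 75th percentile.

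**Figure D1:**
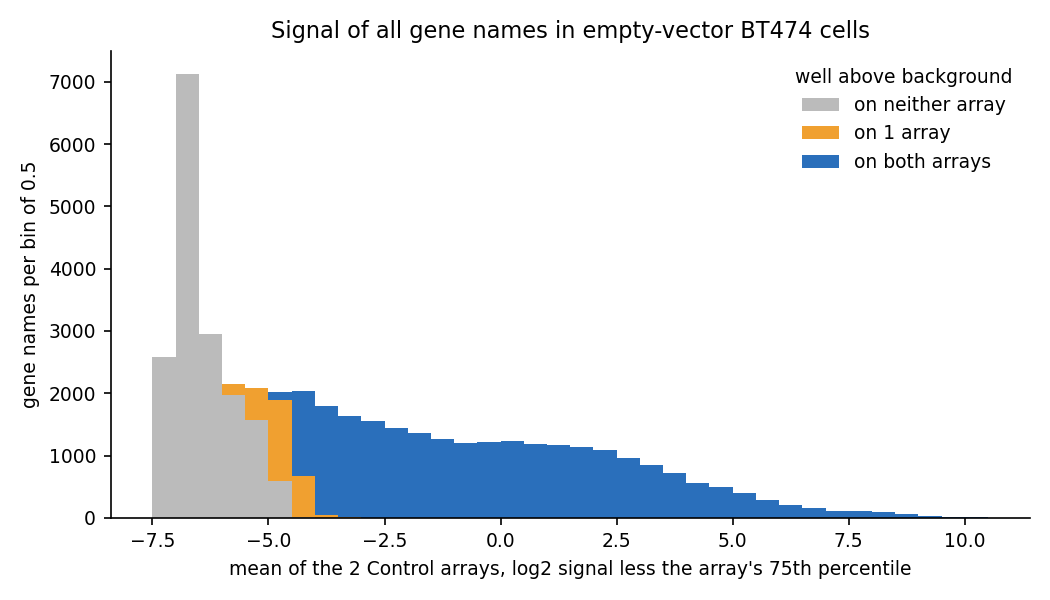
Number of gene names (vertical axis, bins of 0.5) by mean signal of the 2 Control arrays (horizontal axis, log2 signal less the array's 75th percentile), colored by whether the name was well above background on both arrays, on 1 or on neither. The 16815 names on neither array pile up at the left, below −4, and the 23783 names on both form a long right tail that reaches 10.3.

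The brightest signals came from the translation machinery. RPS2, a protein of the small ribosomal subunit, led with 10.30 on both arrays, followed by RPL23 with 10.30 and 10.29. Among the 30 brightest gene names, 7 were ribosomal protein genes or their pseudogenes: RPS2, RPL23, RPL19, RPL19P12, RPS18, RPS27 and RPL23P8. A further 3 were MTRNR2L2, MTRNR2L6 and MTRNR2L1, nuclear copies of the mitochondrial 16S ribosomal RNA gene, which cannot be told apart from the mitochondrial transcript here. The ferritin heavy chain gene FTH1, prothymosin PTMA, the mitochondrial COX2 and the ribosomal RNA name RNA28S5 stood among them as well. Over the whole family, 95 of 98 ribosomal protein names were detected and 91 lay over the 75th percentile, with a median of 8.19 against −3.81 for all gene names.

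Several of the other names near the top rested on a single probe. Of the 30 brightest, 18 had several probes, and in 10 of these the next probe was more than 4 log2 units dimmer. These were lnc-WWC2-1, CC2D1A, TONSL, EXOSC2, GPR155, ZNF865, LOC284600, PTK6, TSR1 and SLC16A12. SLC16A12, a monocarboxylate transporter family gene, read 9.53 on its brightest probe and −7.10 on the next. PTK6, which encodes the breast tumor kinase, read 9.70 on one probe and 0.78 on the other. Such a gap was found in 24 of the 49 names with several probes among the 100 brightest, 49.0%, and in 17.7% of all 10963 names with several probes. A run of 20 bases was shared with a probe of another gene name by 32 of the 100 brightest, PTK6 and TONSL among them, and by 11 of the 24 with a gap. The remaining names among the 30 brightest were ENST00000320371, PQLC2, A_33_P3396434, XLOC_l2_015885 and FAM74A4, each on 1 probe.

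With ribosomal, glycolytic, mitochondrial and other housekeeping classes set aside by symbol, the next 30 brightest names held KRT19, HLA-E, AS3MT, HSCB and SVOP beside those already named. The others there were LOC101929612, LOC729162, XLOC_l2_004940, SNAR-B2, THC2553412, ENST00000511991, ENST00000436136, A_33_P3241043 and A_33_P3315763. AS3MT, HSCB and SVOP again rested on 1 bright probe, with next probes at −3.06, 1.62 and −5.29. HLA-E read 9.27 on its brighter probe and 4.91 on the other, a gap of 4.36. KRT19 was the first epithelial marker in the order, with 9.40 and 9.35, 665-fold over the 75th percentile. Among the 300 brightest protein-coding names, 171 were left after the same classes were set aside, and 112 of these had 1 probe or probes within 4 units of each other. Chosen from those 112 after their values were seen, TCN1, a vitamin B12 binding protein of secretions, read 8.57 ± 0.01. The cytokine gene MIF read 8.72 ± 0.04 and the nucleoside diphosphate kinase gene NME2 read 8.75 ± 0.03. MUCL1, known as small breast epithelial mucin, read 8.12 ± 0.02, and MGP, a matrix Gla protein, read 7.59 ± 0.08.

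The luminal markers were detected almost without exception. Their list, like the others, was chosen with earlier results of these data known, so it is not independent of them. Of 50 listed, 49 were well above background on both arrays and 46 lay over the 75th percentile, 98.0% and 92.0% beside 76.1% and 46.9% of all protein-coding names, with a median of 3.82 against −0.37 for all protein-coding names. The exception was TFAP2B, an AP-2 transcription factor, at −6.63 and −6.91 on its 1 probe. The 4 keratins of simple epithelium were the brightest class. KRT19 lay at the 99.9th percentile of gene names, KRT18 read 8.39 on both arrays, KRT7 read 8.10 and 8.06, and KRT8, the partner of KRT18, read 6.02 on both. The other probes of KRT8 were dimmer, at 2.30 and 1.41. The 12 secreted or secretory pathway proteins had a median of 2.80, the lowest of the keratin, surface, transcription factor and secreted classes, with a few bright members. TFF3 and TFF1, trefoil peptides that protect mucosal surfaces, read 8.82 and 8.28, and SCGB2A2, mammaglobin, read 7.18 ± 0.02. AGR2, a disulfide isomerase of the secretory pathway, read 5.95 ± 0.04.

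All 14 luminal adhesion and surface proteins were detected, with a median of 3.59. CLDN4 was the brightest of them, and EPCAM, an adhesion molecule of simple epithelia, read 6.03 and 5.97. RAB25, which recycles membrane in epithelial cells, read 3.16 and 3.05. A few secreted or secretory products were dim. SCUBE2 read −2.84 and −3.13 and AZGP1, a zinc-binding glycoprotein of secretory epithelia, −0.94 and −0.89, although both are used as luminal markers.

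The 14 luminal transcription factors and receptors spread over a wider range, and 13 were detected with a median of 3.30. XBP1, which drives the unfolded protein response and is induced by estrogen, was the brightest with 8.01 ± 0.01. FOXA1, the pioneer factor that opens chromatin for the estrogen receptor, read 5.28 and 5.29. SPDEF, an ETS factor of secretory cells, read 4.93 and 4.91, and GATA3 read 3.82 and 3.78. TBX3, ELF3, GRHL2 and EHF lay between 2.17 and 2.81, and TFAP2A read 0.26 and 0.46. FOXA1 and MYB were among the names whose probes disagreed, with their other probes at −2.09 and −4.62.

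Steroid receptors were detected in 8 of 9 cases, 88.9% beside 76.1% of all protein-coding names. ESR2 was the exception with −6.28 on the brighter of 2 probes. The progesterone receptor gene PGR, itself an estrogen-induced gene, read 4.27 and 4.26 on one probe and 3.99 and 3.90 on the other. ESR1 was lower in the order, with 1.61 and 1.67, 3.12-fold over the 75th percentile and at the 83.9th percentile of gene names. All 3 probes of ESR1 were well above background, and they lay at 1.64, −1.05 and −2.54, so the position of ESR1 depends on the probe. The glucocorticoid receptor NR3C1 read 1.06 and 1.01, and the estrogen-related receptor ESRRA, an orphan receptor of energy metabolism, was the brightest of the list with 5.39 and 5.37. The second ESRRA probe lay at 1.23, below both PGR probes, so this place depends on the probe too. The ESR1 probes are shown because they target stretches far apart in the gene and gave different signals. Each line gives the first 30 bases of a 60-base probe, 5′ to 3′ in lower case as the files hold it, with the hg19 position of those 30 bases.
ESR1, signal 1.64, plus strand of chromosome 6 from 152423908 to 152423937: tttttgcatccaattgtgcctgaactttta
ESR1, signal −1.05, plus strand of chromosome 6 from 152129048 to 152129077: atgaccatgaccctccacaccaaagcatct
ESR1, signal −2.54, plus strand of chromosome 6 from 152265523 to 152265552: atactctattccgagtatgatcctaccaga

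Of 25 estrogen-responsive genes, 24 were detected and 20 lay over the 75th percentile, 96.0% and 80.0% beside 76.1% and 46.9% of all protein-coding names, with a median of 2.23. Beside TFF1, XBP1, AGR2 and PGR, the ubiquitin ligase gene SIAH2 read 6.61 and 6.57 and IGFBP5, which binds insulin-like growth factors, read 6.15 on both. GREB1 read 3.84 and 3.85, CTSD, cathepsin D, 2.51 and 2.54, and CCND1, cyclin D1, 2.41 and 2.47. PDZK1 and ADORA1 were dim at −3.23 ± 0.39 and −4.41 ± 0.37, and EGR3 was not well above background.

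Basal and myoepithelial markers were often detected but lay low. Of 28 listed, 22 were well above background on both arrays, a share of 78.6% beside 76.1% of all protein-coding names, but 4 exceeded the 75th percentile and the median was −2.65. KRT5, the defining basal keratin, was not well above background, at −6.99 and −6.63, and neither were KRT6B, KRT17 and the contractile genes ACTA2 and CNN1. TP63, the master factor of basal cells, was marked on 1 array, at −5.79 and −4.84. KRT14 was detected on 1 of 2 probes at −4.55 and −4.51, near the bound. The 4 over the 75th percentile were surface proteins, namely P-cadherin CDH3 with 2.15 and 2.10, CD44, and the hemidesmosome integrins ITGB4 and ITGA6.

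**Figure D2:**
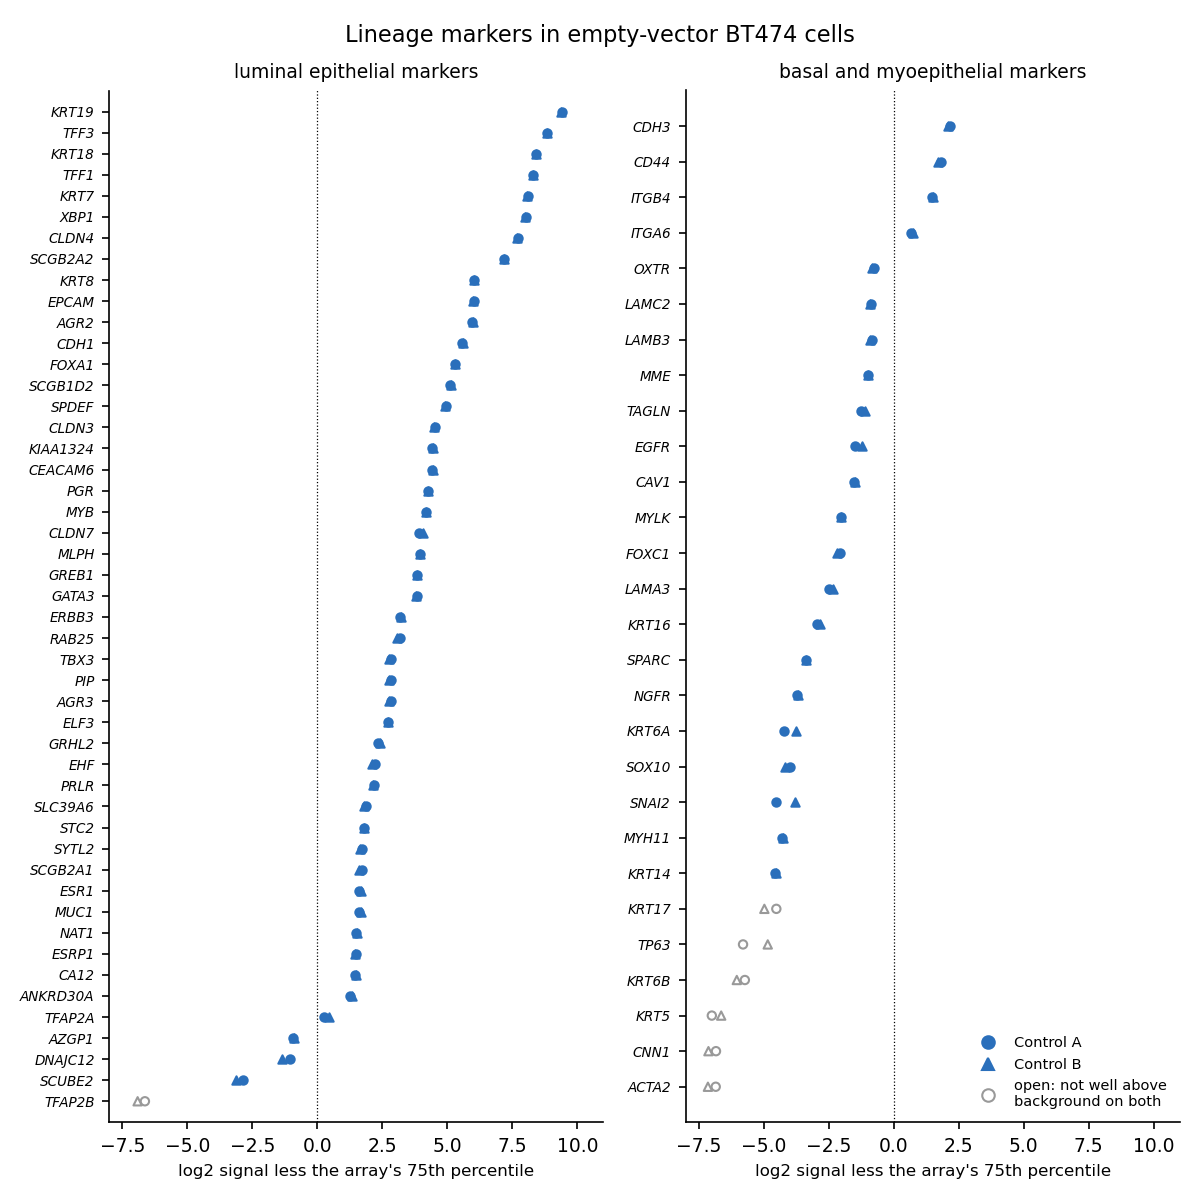
Signal of the luminal epithelial markers reported here (left) and of the basal and myoepithelial markers (right) on Control array A (circles) and B (triangles), in log2 units less the array's 75th percentile, with open symbols for names not well above background on both arrays. Nearly all luminal markers lie over 0, where 46 of the 50 listed were found, and 4 of 28 basal markers do.

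Other lineages were checked in the same way, each beside 76.1% of protein-coding names. Mesenchymal and fibroblast markers were detected in 9 of 22 cases, and FN1, COL3A1, COL1A2, LUM, DCN, FAP, THY1, FBN1, COL6A3, POSTN and PDGFRA were on neither array. VIM, vimentin, stood out among them with 3.64 and 3.57, and COL1A1 read 0.66 and 0.61. ZEB1, a repressor of E-cadherin, read −3.74 and −3.80, SNAI1 read −1.94 and −1.73, and ZEB2 was marked on 1 array. Endothelial markers were detected in 4 of 13 cases, with VWF highest at 0.50 and 0.61. PECAM1, KDR, FLT1, TEK, TIE1, ERG, EMCN, ROBO4 and CLDN5 were not well above background.

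Leukocyte markers were detected in 11 of 19 cases, with a median of −3.73. CD4 read 5.49 and 5.46 on 1 of its 2 probes and was not above background on the other, at −7.12. CD79A, a B cell receptor component, read 3.89 and 3.83 on its single probe, while its partner CD79B and MS4A1 were on neither array. PTPRC, the pan-leukocyte phosphatase CD45, read −0.92 and −0.85, with 2 of 5 probes detected, and CD3G, CSF1R and GNLY were on neither array. Whether these signals came from the named transcripts or from others that bind the same probes was not tested.

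Single bright members were also found in the adipocyte, hepatocyte, muscle and neuron lists. Adipocyte markers were detected in 4 of 10 cases, led by the lipid droplet gene CIDEC with 2.41 and 2.39, while FABP4 and LEP were on neither array and ADIPOQ was on 1. Hepatocyte markers were detected in 5 of 14 cases, led by SERPINA1, alpha-1 antitrypsin, with 2.20 and 2.26. Muscle markers were detected in 7 of 13 cases, led by myoglobin MB with 2.59 and 2.60 and desmin DES with 0.59 and 0.61. Neuronal markers were detected in 7 of 14 cases, led by the tubulin gene TUBB3 with 5.70 and 5.51, and the neurofilament genes NEFL, NEFM and NEFH were on neither array. Of 11 genes of lactation and luminal progenitors, 5 were detected. ELF5, an ETS factor of the milk-producing lineage, read 3.02 and 2.98, but the milk protein genes CSN2, CSN3 and LALBA and the progenitor receptor gene KIT were not well above background.

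**Figure D3:**
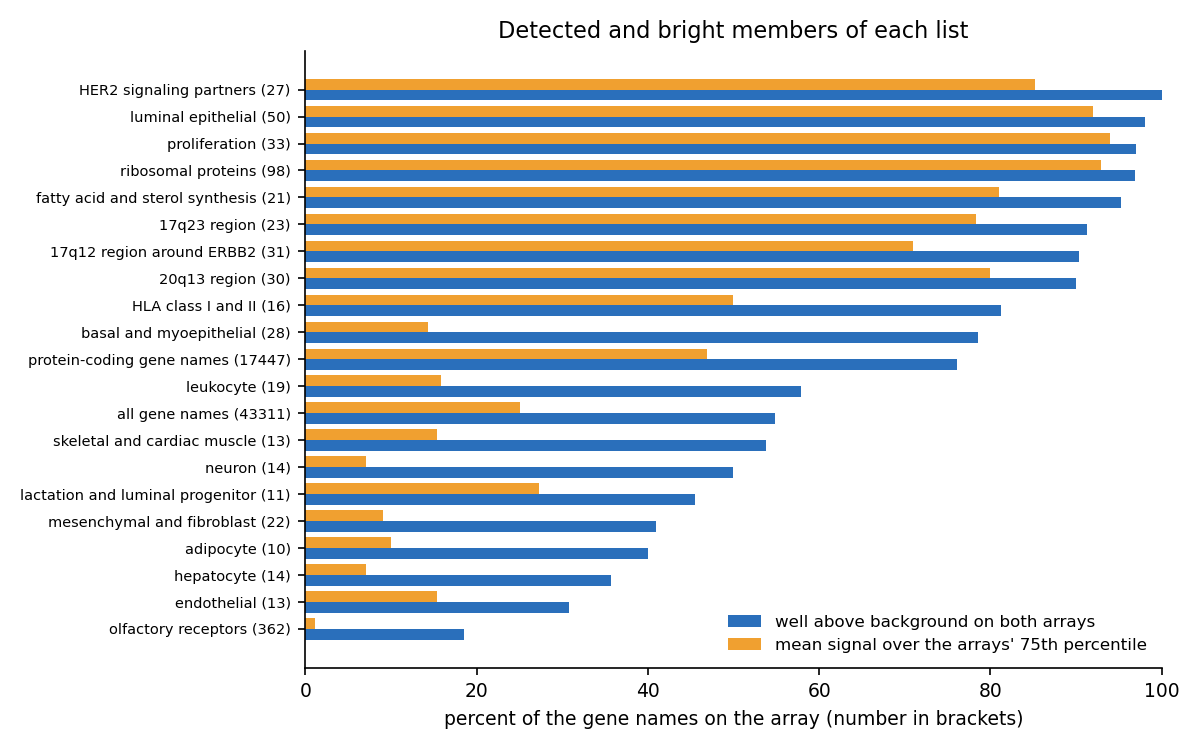
Percent of the gene names of each list that were well above background on both Control arrays (blue) and percent with a mean signal over the arrays' 75th percentile (orange), with the number of names in brackets. Luminal markers reach 98.0% and 92.0%, basal and myoepithelial markers 78.6% and 14.3%, and olfactory receptors 18.5% and 1.1%.

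Of the 4 ERBB receptors, ERBB2 stood far above the rest in the order of signals. ERBB2 read 8.12 and 8.08 on its brighter probe, 275-fold over the 75th percentile and at the 99.6th percentile of gene names. ERBB3, its kinase-impaired partner, read 3.17 and 3.23, with its other probes at 0.76 and −3.33. ERBB4 read 0.60 and 0.62 on 1 of 2 probes, the other lying at −7.09. EGFR read −1.47 and −1.20 on 1 of 3 probes, the others not well above background. The second ERBB2 probe read −0.75. It lies upstream on the plus strand of chromosome 17, and neither exon nor intron was assigned, as no hg19 gene models were used. The probes of ERBB2 and EGFR are shown because their signals differed between probes of the same gene.
ERBB2, signal 8.10, plus strand of chromosome 17 from 37884829 to 37884858: aatgggtgttgtatggggaggcaagtgtgg
ERBB2, signal −0.75, plus strand of chromosome 17 from 37851136 to 37851165: ggggctttcaagggacaagtatgggggttg
EGFR, signal −1.34, plus strand of chromosome 7 from 55274841 to 55274870: tatcaaggaagaaatggttcagaaaatatt
EGFR, signal −5.11, plus strand of chromosome 7 from 55224558 to 55224587: ggaaatcagtgttttagagagagaactttt
EGFR, signal −5.56, plus strand of chromosome 7 from 55231446 to 55231475: agaactctgagtgcatacagtgccacccag

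The ligands of these receptors were mostly dim. Of 7 EGF-type ligands, 4 were detected, 57.1% beside 76.1% of all protein-coding names. Amphiregulin AREG and TGFA alone exceeded the 75th percentile, with 1.98 ± 0.04 and 1.77 ± 0.02. Betacellulin BTC read −1.72 ± 0.19 and EGF −3.34 ± 0.19, and HBEGF, EPGN and EREG were on neither array. The neuregulins, which bind ERBB3 and ERBB4, all lay between −4.63 and −2.90. NRG3, NRG4 and NRG2 were detected, and NRG1, at −4.63 ± 0.89, was marked on 1 array.

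**Figure D4:**
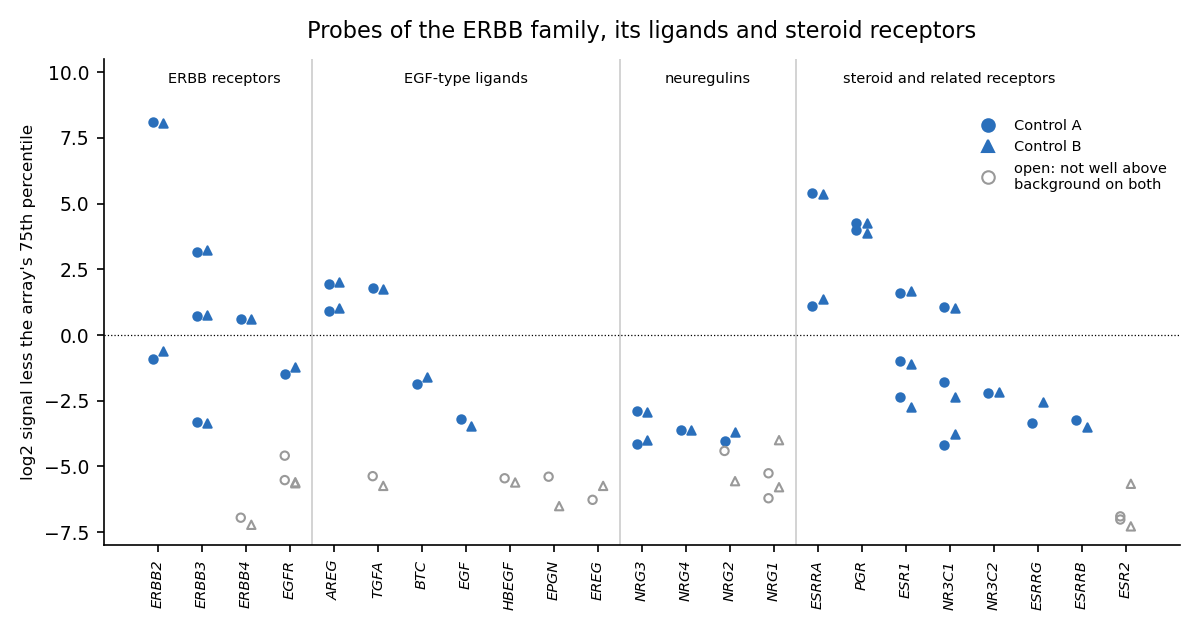
Signal of the probes of the ERBB receptors, their ligands and the steroid and related receptors reported here on Control array A (circles) and B (triangles), in log2 units less the array's 75th percentile, with open symbols for probes not well above background on both arrays. The brighter ERBB2 probe stands at 8.10, and the probes of ERBB2, ERBB3, ERBB4, EGFR, ESR1 and ESRRA spread over 4 units or more.

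All 27 listed genes of HER2 signaling were detected, and 23 lay over the 75th percentile, 100.0% and 85.2% beside 76.1% and 46.9% of all protein-coding names, with a median of 2.15. Of the chaperones that hold HER2 in a stable fold, HSP90AA1 was the brightest of the list with 9.31 and 9.30. HSP90AB1 read 5.92 and 5.88 and the co-chaperone CDC37 4.52 and 4.46. The PI3K subunit gene PIK3R2 read 5.88 and 5.80, against 1.08 and 0.98 for PIK3R1, which are different probes. AKT1 read 4.05 on both arrays and AKT2 2.28 and 2.20. The catalytic subunit gene PIK3CA read 0.36 and 0.44. The adaptors GRB7, SHC1 and GRB2 read 3.84, 2.39 and 1.28, and MAP2K1 read 2.15. PIK3CB, SRC and SOS1 were among the members below the 75th percentile, with −1.05, −1.17 and −1.40.

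Many listed neighbours of ERBB2 on 17q12 were bright as well. Of 31 listed names, 28 were detected and 22 lay over the 75th percentile, 90.3% and 71.0% beside 76.1% and 46.9% of all protein-coding names, with a median of 3.68. MIEN1, whose probe lies 0.639 kb from that of ERBB2, read 7.95 and 8.02. STARD3, a cholesterol transporter of late endosomes, read 7.62 and 7.61, the sphingolipid regulator gene ORMDL3 6.93 and 6.87, and the proteasome gene PSMD3 6.19 and 6.27. PGAP3, an enzyme of GPI anchors, read 5.62 and 5.60, and the lymphoid factor gene IKZF3 read 5.95 and 5.82. The second probes of IKZF3 and ORMDL3 were much dimmer, at 0.29 and 2.60. The adaptor GRB7 read 3.85 and 3.83, MED1, a mediator subunit that binds the estrogen receptor, 2.78 and 2.74, and CDK12 2.70 and 2.75. TOP2A, the target of anthracyclines, read 3.23 and 3.15.

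Not every neighbour was bright. ZPBP2, a sperm protein gene 148 kb from ERBB2, was on neither array with −6.78 and −7.05, and GSDMA and CSF3 were marked on 1 array. NEUROD2, PPP1R1B, LRRC3C and NR1D1 were detected between −4.11 and −3.22. These dim names lay between bright ones, PPP1R1B at −92.2 kb and STARD3 at −65.2 kb on the same side of ERBB2. By distance, 16 protein-coding names lay within 250 kb of the ERBB2 probe, with a median of 3.76, and 10 lay from 250 to 500 kb, with a median of 3.74. The 25 names from 500 to 1000 kb had a median of 2.65 and held RPL23 and RPL19, the 2nd and 8th brightest gene names of the arrays. From 1000 to 2000 kb, where many keratin and keratin-associated genes lie, the median over 70 names was −3.32. It was 1.15 over 44 names from 2000 to 3000 kb, and over the 880 names farther than 3000 kb on chromosome 17 it was 0.33. Copy number was not measured, so amplified DNA and transcription per copy cannot be told apart.

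**Figure D5:**
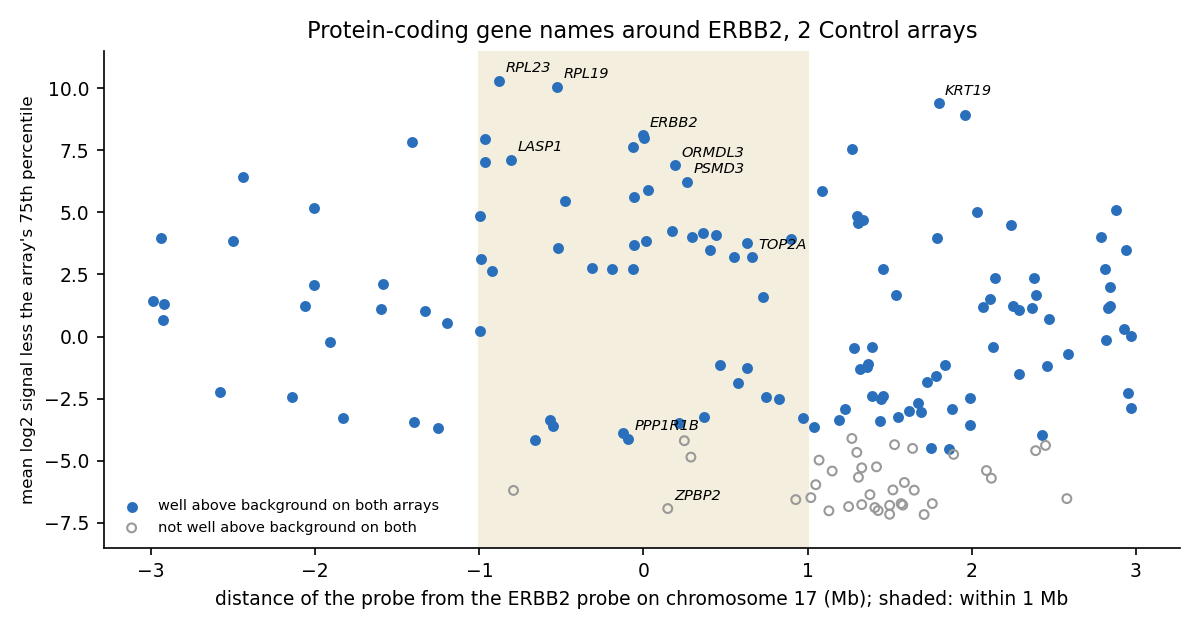
Mean signal of the 2 Control arrays (vertical axis, log2 units less the array's 75th percentile) for protein-coding gene names by the distance of their probe from the ERBB2 probe on chromosome 17 (horizontal axis, Mb), with the 1 Mb to either side shaded. The points within 1 Mb rise to 10.29 at RPL23, with dim names such as ZPBP2 among them, and between 1 and 2 Mb on the right most names lie below 0, except KRT19 and a few others.

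Windows of 15 neighbouring gene names were set along all chromosomes, 42695 in all, with a median signal of −3.79. The 3 brightest separate windows were in the histone clusters on chromosome 6, with medians of 4.85, 4.72 and 4.03. Next came the brightest of the 15 windows that hold ERBB2, on chromosome 17 from 37760054 to 38077558 in hg19, with a median of 3.84 and 14 of 15 names detected. It held NEUROD2, ENST00000398554, PPP1R1B, STARD3, TCAP, PNMT, PGAP3, ERBB2, MIEN1, GRB7, IKZF3, lnc-GRB7-1, ZPBP2, GSDMB and ORMDL3. Array A and array B gave 3.85 and 3.83. Among all windows, overlapping ones included, it stood at position 24, and the dimmest window holding ERBB2 had a median of −2.97. The windows that followed lay on chromosome 1 from 153777274 to 154248205 with a median of 3.41, and on chromosome 19 from 1258896 to 1440368 with 3.27. The former held RPS27, TPM3 and HAX1, and the latter RPS15, CIRBP and NDUFS7. Further windows, between 3.17 and 3.24, lay on chromosomes 1, 5, 7 and 17. With gene names restricted to symbols, which was chosen after the data were seen, the brightest window holding ERBB2 had a median of 4.26 and was again the 4th, now after 2 histone windows and a window on chromosome 9 around SPTAN1 and SET.

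Lists were also read for 20q13 and 17q23, regions known to be amplified in breast cancer. On 20q13, 27 of 30 names were detected with a median of 4.09. RAE1, an mRNA export factor, read 8.18 and 8.12, PREX1, an activator of RAC, 7.17 and 7.20, BCAS1 7.04 ± 0.06 and the growth factor gene BMP7 6.97 and 6.98. The mitotic kinase gene AURKA read 5.54 and 5.42, ZNF217 3.59 and 3.66 and the steroid receptor coactivator NCOA3 2.80 and 2.89. CYP24A1, PCK1 and TSHZ2 were on neither array. On 17q23, 21 of 23 names were detected and 18 lay over the 75th percentile, with a median of 2.80. These shares were 91.3% and 78.3% beside the same 76.1% and 46.9%. PTRH2 read 6.43 and 6.32, VMP1 5.54 and 5.48, RPS6KB1, the S6 kinase, 3.63 and 3.70 and PPM1D 3.13 and 3.03. TBX4 and CA4 were on neither array, and INTS2 differed between arrays with −1.43 and 0.09.

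Gene families differed in how many members were bright, and 12 of 56 keratins, 9 of 19 S100 names and 7 of 8 secretoglobins lay over the 75th percentile. These were 21.4%, 47.4% and 87.5%, beside 46.9% of all protein-coding names. Of 56 keratin names, 33 were detected, 58.9% beside 76.1% of all protein-coding names. KRT81, a hair keratin also known from breast cancer cells, read 7.14 ± 0.02, below KRT7 and above KRT8 in the order. After KRT8 came KRT10 with 5.84, KRT15 with 3.98 and KRT80 with 3.06. Hair keratins KRT36, KRT38, KRT40, KRT82 and KRT84 and the inner root sheath keratins KRT25 and KRT27 were on neither array. Of 23 claudins, the strand proteins of tight junctions, 12 were detected, 52.2% beside the same 76.1%. CLDN4 read 7.70 and 7.68, with its second probe at −4.15, CLDN3 read 4.53 and 4.47, and CLDN7 3.91 and 4.07, whereas CLDN1, CLDN5 and CLDN10 were on neither array.

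Among 19 classical cadherins, 7 were detected, 36.8% beside 76.1% of all protein-coding names. E-cadherin CDH1 led with 5.56 and 5.59, CDH22 followed with 4.95 and 4.92, and N-cadherin CDH2 read −1.06 and −1.21. CDH6, CDH8, CDH10 and CDH13 were on neither array, and CDH11 on 1. Of 17 mucins, 10 were detected, 58.8% beside the same 76.1%. MUC6 led with 5.45 and 5.43, then MUC4 with 3.01 and 2.93 and MUC19 with 1.70 and 1.65. MUC1, the mucin of the luminal surface, read 1.61 and 1.66, and MUC16, the CA125 antigen, was on neither array. All 8 secretoglobin names were detected, with SCGB1D1 and SCGB1D2 at 5.13 and 5.11 behind SCGB2A2. Of 19 S100 names, 15 were detected, 78.9%. S100A6 led with 6.48, then S100A16 with 6.27 and S100A14 with 6.07, and S100B was on neither array.

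Protease inhibitors, proteases and growth factor binding proteins were read as well. Of 35 serpins, 16 were detected, 45.7% beside 76.1% of all protein-coding names. The collagen chaperone gene SERPINH1 led them with 4.40 and 4.47, and SERPINB5, maspin, read −2.50 and −2.42. Of 15 kallikreins, 7 were detected, 46.7% beside the same 76.1%. KLK12 alone lay over the 75th percentile with 2.20 and 2.12, and KLK5 and KLK7 were on neither array. KLK3, which encodes PSA, read −3.61 and −3.90. Among 7 IGF binding proteins, 4 lay over the 75th percentile, 57.1% beside 46.9% of all protein-coding names. IGFBP2 read 5.29 and 5.33 behind IGFBP5, and IGFBP6 was on neither array. The trefoil gene TFF2 read −1.36 and −1.45, far below TFF1 and TFF3 in the order of signals.

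Transcription factor families were read in the same manner. GATA3 was the brightest of the GATA factors, GATA6 read 1.11 and 1.17, GATA2 0.44 and 0.33, and GATA1, the erythroid factor, was on neither array. FOXA2, which patterns endoderm, was on neither array, and FOXA3 read −3.39 ± 0.34. TFAP2C, an AP-2 factor linked to HER2 transcription, read 3.52 and 3.56, and TFAP2D was on neither array. Of 19 SOX factors, 12 were detected and 4 lay over the 75th percentile, 63.2% and 21.1% beside 76.1% and 46.9% of all protein-coding names. The 4 were SOX13, SOX11, SOX4 and SOX2 with 2.17, 1.51, 1.26 and 0.75. SOX17, SOX18 and SOX7 were on neither array. Of 39 HOX genes, 25 were detected, 64.1% beside the same 76.1%. HOXB13, best known from prostate, was the brightest with 4.36. Next came HOXA10 with 3.87 on 1 of 2 probes, HOXC6 with 3.45 and HOXC9 with 3.36.

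The orphan nuclear receptors NR2F6, NR2F2 and NR2F1 and their antisense transcripts were of interest because NR2F1-AS1 was the RNA introduced in the other cells. NR2F6 read 7.49 ± 0.01 and NR2F2, also named COUP-TFII, 3.80 and 3.79. NR2F1 was detected at −2.15 and −2.37, and NR2F2-AS1 at −3.34 and −3.35 with 2 of 4 probes. No probe of NR2F1-AS1 was well above background on both arrays. Its 4 probes had means of −4.47, −5.47, −5.84 and −7.01, and 3 of them were marked on 1 array. The RNA was therefore near or under the bound in empty-vector cells. Which variants each probe would detect was not worked out here. The brightest is shown, its first 30 bases lying on the minus strand of chromosome 5 from 92747025 to 92747054 in hg19.
NR2F1-AS1, signal −4.47: ttatgcaaggttcagcagaggaagttttca

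Most genes of dividing cells were bright. Of 33 listed, 32 were detected and 31 lay over the 75th percentile, 97.0% and 93.9% beside 76.1% and 46.9% of all protein-coding names. Their median was 2.81. The replication helicase subunit MCM7 read 6.99 ± 0.01, the thymidylate synthase gene TYMS 5.84 and 5.81, the mitotic genes CENPF 5.88 and 5.81 and BIRC5 5.67 and 5.64, and PCNA 5.30 and 5.27. The second probes of MCM7 and CENPF were much dimmer, at 1.71 and 1.20. MKI67, the antigen used to score proliferation, read 1.67 and 1.55, with its other probes at 0.68 and −0.47. CDK4 read 5.21 on both arrays and CDK6 1.18 and 1.14. Of the D cyclins, CCND1 and CCND3 read 2.44 and 1.09, and CCND2 was on neither array. Among 7 CDK inhibitors, 6 were detected, 85.7% beside the same 76.1%. CDKN1B, p27, read 3.56 and 3.55, CDKN2A 3.40 on both arrays, and CDKN1A, p21, −3.62 and −4.05, while CDKN2B was on neither array.

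Genes of fatty acid and sterol synthesis were detected in 20 of 21 cases, 95.2% beside 76.1% of all protein-coding names. Their median was 2.65. ACACA, the rate-limiting enzyme of fatty acid synthesis, read 6.45 and 6.42, FASN 5.67 and 5.64, and their regulator SREBF1 5.68 and 5.59. The desaturase genes FADS2 and SCD read 5.93 and 2.64, the LDL receptor 5.42 and the sterol enzyme gene SQLE 4.86. THRSP was marked on 1 array.

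Class I genes led the HLA list, in which 13 of 16 names were detected, 81.2% beside 76.1% of all protein-coding names. HLA-E, HLA-C, HLA-G and HLA-B read 9.27, 6.81, 5.84 and 5.73, and the second HLA-E probe read 4.91. Class I genes share sequence, however, and the brighter HLA-E probe shared a run of 20 bases with probes of 6 other names. HLA-DRA, HLA-DMB and CD74, the invariant chain, were on neither array, and CIITA, the class II activator, read −3.92 and −3.60. HLA-F, a class I gene, read 1.17 and lay close to the class II genes HLA-DRB1 and HLA-DQB1 with 1.00 and 0.65, so the classes met in the middle of the range.

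Known lncRNAs were detected in 18 of 19 cases, NR2F1-AS1 being the exception, with a median of 3.96. This share was 94.7% beside 54.9% of all gene names, coding and noncoding together. No share over noncoding names alone was taken. GAS5 read 7.90 and 7.85, MALAT1 7.82 and 7.78, and NEAT1, the scaffold of paraspeckles, 5.63 and 5.65. HOTAIR read 1.05 and 0.98, and DSCAM-AS1, an estrogen receptor-linked lncRNA of luminal tumors, 0.60 and 0.69. H19 read −0.26 and −0.18. Of 54 cytochrome P450 names, 31 were detected, 57.4% beside 76.1% of all protein-coding names. CYP2W1, a P450 otherwise known from fetal gut and tumors, led with 8.85 and 8.88 on its single probe. That probe shared 20 bases with probes of 3 other names. Aromatase CYP19A1 was on neither array with all 4 of its probes.

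Gene starts of detected and undetected names differed in composition. RefSeq start regions in GRCh38.p14, running from 250 bases before to 50 bases after the start, were matched to 13987 protein-coding names. The median number of CpG dinucleotides was 27 in the 500 brightest of these names, 25 in other detected names and 7 in names not detected. The letters TTCCGG, a longer form of the TTCC core bound by ETS factors, were found on either strand in 35.6%, 27.1% and 9.0% of the same groups. Of all names, 23.3% held them. The GC box GGGCGG was found in 70.0%, 66.9% and 35.7%, and the TATA letters TATAAA in 7.2%, 6.5% and 18.5%. CCAAT was found in 39.4%, 36.0% and 36.1%. Of 50 luminal markers, 32 had a start region in the table, and the 5 brightest, KRT19, TFF3, KRT18, TFF1 and KRT7, did not. The 32 had a median of 8 CpG, TTCCGG in 12.5% and TATAAA in 25.0%. A match is a description of letters and not a binding site, and CpG content and gene type were not separated.

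The 100 bases before the start are shown for ERBB2, its neighbour STARD3 and the luminal genes GATA3 and KRT8. They were chosen because they hold TTCCGG, which is in capitals on either strand. ERBB2 holds TTCCGG as a pair, facing each other, and the others hold a single copy. Shorter TTCC or GGAA stretches outside TTCCGG were not counted and are not in capitals. Whether the RNA read by the probes begins at the start shown, or at another start of the gene, was not tested. The regions lie in GRCh38.p14 at chr17:39687994-39688093, chr17:39637044-39637143 and chr10:8045233-8045332 on the plus strand and at chr12:52926470-52926569 on the minus strand. They are given 5′ to 3′ on the gene's strand.
ERBB2: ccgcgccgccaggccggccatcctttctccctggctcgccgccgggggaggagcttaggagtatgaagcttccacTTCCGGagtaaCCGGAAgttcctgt
STARD3: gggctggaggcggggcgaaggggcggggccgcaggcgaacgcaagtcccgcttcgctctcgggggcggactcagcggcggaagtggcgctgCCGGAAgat
GATA3: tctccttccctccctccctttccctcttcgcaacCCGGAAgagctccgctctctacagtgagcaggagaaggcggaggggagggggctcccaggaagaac
KRT8: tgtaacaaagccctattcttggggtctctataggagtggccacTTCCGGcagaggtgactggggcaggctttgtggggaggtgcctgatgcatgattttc

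Base composition of the probes moved with detection too. Probes under 30% GC were well above background in 38.3% of cases, those of 40 to 50% GC in 50.4% and those of 60% GC or more in 80.9%. Over all probes the median signal was −6.47, −4.31 and −2.14 in the same classes, so it rose with GC. Among detected probes alone it was −0.66, −0.76 and −1.33. It was −0.21 and −1.34 for detected probes of 30 to 40% and 50 to 60% GC. Richer GC thus went with more calls and with higher signals over all probes, but not with brighter detected probes. The part of probe composition in the list counts and in the order of signals was not tested.

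The arrays differed most in dim names. Among names detected on both arrays, the largest differences were found in TMOD2, a tropomodulin gene, with −0.81 and −4.62, and in ENST00000505200, lnc-ABCF2-1, lnc-PLCB4-2 and ENST00000506299, all higher on array A. Higher on array B were lnc-CBLL1-1 with −4.28 and −1.15, OR2B2, KRTAP10-5, MGC32805 and FABP6. No name of these 10 had a mean over −1.28, and none was in the marker lists.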

How the data were processed

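The 2 Control samples were each measured on a one-color expression array of Agilent. Per the submitters' processing notes, Agilent Feature Extraction 11.5.1.1 read the scans, subtracted background and marked outlier and dim spots. The deposited scanner files hold linear intensities that are not normalized between arrays. The deposited table holds log2 values that the authors shifted to the 75th percentile in GeneSpring. It exceeded the scanner-based values by a median of 0.509 on array A and 0.517 on array B, with column medians of −3.50 and −3.47, so its zero lies lower, and it served as an alternative.

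Here log2 of the processed intensity less the 75th percentile of non-control spots was used. Outlier spots were left out, 90 and 63, spots of a probe were averaged, and a gene name took its brightest probe. Per the file headers, positions are hg19. The scripts were tested on simulated data. Python 3.11.15, pandas 2.3.3, numpy 2.4.6, matplotlib 3.10.9 and, for normexp and its offset of 50, limma 3.58.1 in R 4.3.3 were used. Members, lists and families were chosen with earlier results of these data known, and 493 of 494 listed symbols were matched, older symbols through RefSeq's table. Named were the 30 brightest gene names, the 30 brightest without housekeeping classes, members of the lists and families, and the 5 largest array differences in each direction. The alternatives were normexp, quantile normalization, the deposited table, a weaker detection mark, detection on 1 array, the median over probes, outlier spots kept and each array alone. Some members of the lists are counted but not reported by name here, and are not drawn. The other 4 arrays were not used. The number of arrays limits the precision.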

Additional observations from a re-analysis of the deposited data

Results flagged for a closer look

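Control sequences of the array, which enter no comparison above, also gave signal. The E1A spike-in targets were well above background for 7 of 10 sequences on array A and 8 of 10 on array B, reaching 8.24 and 8.20. Of 96 ERCC control sequences, 8 on array A and 10 on array B were marked well above background, with the highest at −1.90 and −1.99, while the negative control sequence lay at −6.80 and −7.09. These were picked out because they lie above the negative control in data outside the main measurement. With 2 arrays in the group, single outlying samples could not be looked for.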

How the results depend on the processing

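The count of detected gene names, 23783, lay between 23267 and 31430 under the alternatives, and between 24483 and 25826 from a single array. Of 30 lists, the detected members stayed within 1.5 times under each alternative except the weaker mark of positive and significant signal, which gave 14 of 22 mesenchymal, 17 of 19 leukocyte, 9 of 10 adipocyte, 8 of 14 hepatocyte, 11 of 13 muscle and 14 of 19 cadherin names. Of the 100 brightest, 92 were kept with normexp and 67 with the median over probes. The brightest window holding ERBB2 had medians of 3.38 with normexp, 3.68 with the median over probes and 4.26 with symbols alone, the last an alternative chosen after the data were seen. Without replicate A or B it had 3.83 and 3.85. List medians shifted by 0.51 to 0.53 in the deposited table, by −0.48 to 4.59 with normexp, which lifts dim signals, and by −3.32 to 0 with the median over probes, so levels depend on the probe and the background correction more than on the array. Of 27 percentile ranks of single genes, 26 moved with the median over probes, by −26.5 to 3.5, ERBB2 from the 99.6th to the 94.8th and ESR1 from the 83.9th to the 72.8th. Dim genes are bounded by the background, and no paired analysis was possible because there is 1 group and no test.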
